A study of Homo sapiens with 18 samples.

Results

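LIN28B-overexpressing colorectal cancer cells labelled LoVo were compared with and without alpelisib, a drug that inhibits the alpha isoform of phosphatidylinositol 3-kinase (PI3K). The members are the genes that reached a value of at least 1 TPM, a length-scaled share of a library's transcripts, in 3 or more of the 6 libraries compared. There were 16079 such genes among the 61806 gene identifiers listed, and 45727 fell below the minimum. Just inside it lay ADAMTS19, which reached 1.0009 TPM in the third of its libraries by level, and just outside it GMCL1P2, which reached 0.999917 TPM. The untreated group held 3 libraries labelled LIN28B overexpressed with no treatment, and the treated group 3 libraries with the same genotype and 5 µM alpelisib. All 6 were thus LIN28B-overexpressing, and cells grew in DMEM with serum. The full study held 18 libraries in 6 groups of 3, namely those labelled EV, LIN28B and LIN28B with alpelisib in LoVo and in DLD-1, both human colorectal adenocarcinoma lines. The means and promoter of overexpression, whether the line is 1 clone, the hours of treatment and the vehicle are not given in the sources used here. Since the labels do not say that replicates were grown as separate cultures, p-values measure only how far these samples spread, which may be technical error alone.

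PI3K turns growth factor and insulin signals at the membrane into a lipid messenger that recruits AKT. AKT in turn activates mTOR complex 1, which promotes protein, lipid and nucleotide synthesis, partly through the transcription factors HIF-1, SREBP and ATF4, and it holds FOXO factors outside the nucleus. The catalytic subunit that alpelisib inhibits, p110-alpha, is encoded by PIK3CA, which is often mutated in colorectal cancer. LIN28B binds precursors of the let-7 microRNAs and prevents their maturation.

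The libraries of a group resembled each other (Pearson's r of log2(TPM + 1) across genes, which are not independent replicates, 0.9777 to 0.9794 among untreated and 0.9739 to 0.9796 among treated libraries). Between the groups r was 0.9268 to 0.9541, and treated replicate 3 lay farthest from the untreated libraries (r of 0.9268 to 0.9424). List counts that moved by over 1.5 times without it are given both ways. Genes listed above 0 numbered 23038 to 24129 in untreated and 24827 to 25501 in treated libraries, and the mitochondrial genome took 7.24 to 10.3% and 8.22 to 12.2% of the TPM. Depth is unknown from TPM.

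The cell line label was checked against the other libraries. Profiles of the untreated libraries correlated at 0.8900 to 0.9190 with LoVo EV, at 0.9589 to 0.9641 with DLD-1 EV and at 0.9611 to 0.9670 with DLD-1 LIN28B cells. In the LoVo EV libraries the mitochondrial genome took 14.5 to 24.0% of the TPM, and its part in their lower correlation was not tested. VIL1, which encodes villin of the brush border, was at 24.8 ± 1.69 TPM (mean ± SD, n = 3, as for all such values) in the untreated libraries against 15.9 ± 2.25 TPM in DLD-1 EV and 3.03 ± 0.256 TPM in LoVo EV. The intestinal factor CDX2 was at 402 ± 53.9 TPM against 254 ± 19.9 and 94.9 ± 14.8 TPM. KRT20, a differentiation keratin, was far below its DLD-1 level, at 4.72 ± 0.347 TPM against 124 ± 5.55 and 0.685 ± 0.36 TPM. The cells are therefore called LoVo-labelled. The epithelial marker EPCAM was at 575 ± 26.2 TPM untreated and 508 ± 50.5 TPM treated. Markers of other cells were near 0: 9 fibroblast genes summed to 5.48 to 7.46 TPM untreated and 7.31 to 9.0 TPM treated with 2 of 9 at 0, 11 immune genes to 5.79 to 6.59 and 3.83 to 4.16 TPM with 4 of 11 at 0, and 7 endothelial genes to 1.02 to 1.46 and 1.57 to 2.33 TPM with 1 of 7 at 0.

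Expression was tested as log2(TPM + 1) with limma in a model of all 18 libraries, and a gene was called at a Benjamini-Hochberg adjusted p under 0.05. Log2 changes are treated minus untreated on that scale, which understates the change of low genes, and folds are ratios of mean TPM. Of the 16079 genes, 7321 (45.5%) were called, 2719 higher with alpelisib (16.9%) and 4602 lower (28.6%). A called change of 2-fold or more in TPM + 1, not in mean TPM, was met by 667 genes that rose (4.15%) and 662 that fell (4.12%). The 2 groups did not overlap for 3329 genes in the higher (20.7%) and 5501 in the lower direction (34.2%). When libraries were scaled by the median of ratios, which moved the median of all genes up by 0.103 from -0.092, the split became 3508 higher (21.8%) and 3799 lower (23.6%). The higher share of calls was then 48.0% in place of 37.1%, 6514 genes were called in the same direction both ways, and 0 in opposite directions. List counts that this scaling moved by over 1.5 times are given both ways.

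Falling genes of 2 groups are shown with the sequence upstream of their start, each holding the motif of a known regulator. The lists and motifs were chosen with earlier results of these data known. The part of these regulators in the falls was not tested. The first motif is the core of the hypoxia response element, TACGTG on either strand, which HIF-1 binds. It lay in 8 of 21 promoters of hypoxia-response genes tested that are in the RefSeq table (38.1%) and in 3.54% of the 10955 tested genes with a promoter there, over 300 bases from 250 before to 50 after the start. The E-box CACGTG shares its last 5 letters, so no position matches both. Shown are bases 200 to 101 before the start (GRCh38.p14), 5′ to 3′ on the gene's strand, with the motif in capitals. DDIT4 spans chr10:72273724-72273823, plus strand, ANKRD37 chr4:185396641-185396740, plus strand, BHLHE40 chr3:4979237-4979336, plus strand and the glycolytic ENO2 chr12:6914380-6914479, plus strand.
DDIT4: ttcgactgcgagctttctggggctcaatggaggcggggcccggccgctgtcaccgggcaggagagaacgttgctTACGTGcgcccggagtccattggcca
ANKRD37: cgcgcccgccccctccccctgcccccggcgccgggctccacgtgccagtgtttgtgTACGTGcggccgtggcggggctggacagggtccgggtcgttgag
BHLHE40: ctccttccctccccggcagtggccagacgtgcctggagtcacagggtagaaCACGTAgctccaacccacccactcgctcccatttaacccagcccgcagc
ENO2: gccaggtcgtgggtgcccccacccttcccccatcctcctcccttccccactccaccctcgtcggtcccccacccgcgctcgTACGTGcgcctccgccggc

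The second is the composite element of ATF4 and C/EBP factors, TGATGNAA on either strand, found in 6 of 16 promoters of cytosolic aminoacyl-tRNA synthetase genes (37.5%), 3 of 16 of ATF4-response genes (18.8%), and 1.62% of tested genes. The windows are 200 to 101 bases before the start of AARS1 (chr16:70289607-70289706, minus strand) and 100 to 1 bases before the start of ASNS (chr7:97872409-97872508, minus strand) and IARS1 (chr9:92293698-92293797, minus strand), again on the gene's strand with the motif in capitals. A match describes letters, not a bound site. Of the ATF4-response genes with a match, ATF3 and ASNS fell and CHAC1 was not called.
AARS1: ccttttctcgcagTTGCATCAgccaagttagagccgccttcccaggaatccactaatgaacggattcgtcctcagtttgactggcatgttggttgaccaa
ASNS: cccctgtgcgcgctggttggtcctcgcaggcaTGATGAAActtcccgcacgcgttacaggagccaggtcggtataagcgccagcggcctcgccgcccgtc
IARS1: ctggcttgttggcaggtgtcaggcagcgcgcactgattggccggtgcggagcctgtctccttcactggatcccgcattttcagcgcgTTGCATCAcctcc

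The largest fall on the log2 scale among the genes named by size was that of HILPDA. HILPDA, which coats lipid droplets under low oxygen, stood at 642, 538 and 642 TPM in untreated and 69.9, 79.9 and 62.8 TPM in treated libraries (log2 change -3.08, SE 0.12, adjusted p = 4.56e-11). ANKRD37, another hypoxia-induced gene, stood at 494, 466 and 502 TPM in untreated and 55.2, 63.5 and 52.8 TPM in treated libraries (log2 change -3.07, SE 0.12, adjusted p = 4.12e-11). DDIT4 (REDD1), a stress-induced inhibitor of mTOR complex 1 whose upstream sequence is printed above, stood at 3173, 2882 and 3258 TPM in untreated and 403, 553 and 367 TPM in treated libraries, a 7.04-fold lower mean (log2 change -2.83, SE 0.17, adjusted p = 7.34e-09). Genes named by size had to have groups that do not overlap. In each of these genes the lowest untreated value was more than 5 times the highest treated value.

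SCD, INSIG1 and HMGCS1, which act in lipid synthesis or its control, were among the largest falls as well. SCD, the desaturase that makes oleate, was at 666, 601 and 672 TPM in untreated and 85.2, 106 and 65 TPM in treated libraries, a 7.58-fold lower mean (log2 change -2.93, SE 0.16, adjusted p = 4.03e-09). INSIG1, which retains the SREBP complex in the endoplasmic reticulum and is itself an SREBP target, was at 314, 328 and 342 TPM in untreated and 51.4, 69.4 and 43 TPM in treated libraries (log2 change -2.59, SE 0.15, adjusted p = 4.03e-09). HMGCS1, which makes HMG-CoA for the mevalonate pathway, was at 746, 723 and 813 TPM in untreated and 194, 212 and 134 TPM in treated libraries (log2 change -2.1, SE 0.17, adjusted p = 1.68e-07). Treated replicate 3 was the lowest of its group for all 3 genes, and without it the log2 changes were -2.75, -2.44 and -1.9.

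Other large falls had varied roles. ERRFI1, an inhibitor of the EGF receptor, went from 859 ± 101 to 162 ± 30.5 TPM (log2 change -2.41, SE 0.17, adjusted p = 3.08e-08), and LGALS1, the glycan-binding galectin-1, from 305 ± 15.9 to 61 ± 12 TPM (log2 change -2.32, SE 0.14, adjusted p = 6.34e-09). NR1D1, the clock repressor REV-ERB-alpha, stood at 73.8, 72 and 74.2 TPM in untreated and 14.2, 14.7 and 13 TPM in treated libraries (log2 change -2.32, SE 0.09, adjusted p = 4.56e-11). RRM2, the small subunit of ribonucleotide reductase, fell from 446 ± 71.6 to 94.3 ± 24.7 TPM and the spindle checkpoint kinase BUB1 from 53.2 ± 5.08 to 12.2 ± 2.1 TPM (log2 changes -2.25 and -2.05). The long non-coding RNA LUCAT1 fell from 8.61 ± 2.4 to 0.963 ± 0.438 TPM, MAP7D2, a microtubule-associated protein, from 7.08 ± 1.92 to 0.866 ± 0.24 TPM, and the histone gene H3C15 from 7.83 ± 2.37 to 1.03 ± 0.899 TPM. H3C15 has near-identical copies, so its value is uncertain. LUCAT1, MAP7D2 and H3C15 met the minimum only with the untreated libraries, where they are high.

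The overexpressed gene itself was among the largest falls. LIN28B stood at 706, 682 and 674 TPM in untreated and 146, 160.3 and 155 TPM in treated libraries, a 4.47-fold lower mean (log2 change -2.15, SE 0.15, adjusted p = 3.62e-08). No treated library came near an untreated one. LIN28B was at 4.15 ± 0.668 TPM in LoVo EV and 1.76 ± 0.853 TPM in DLD-1 EV, so most of its level here came with overexpression. Gene-level TPM do not separate introduced from endogenous transcripts. LIN28B fell in DLD-1 LIN28B cells too, from 462 ± 46.3 to 143 ± 5.68 TPM (log2 change -1.68, SE 0.15, limma, adjusted p = 1.17e-06). In both lines the treated and untreated groups thus differ in LIN28B level as well as in drug. The part of LIN28B in the other results was not tested. LIN28A was at or near 0 in all 6 libraries (means 0 and 0.00777 TPM).

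AVIL and PSCA were among the largest rises. AVIL, which encodes the actin-binding protein advillin, a marker of tuft cells, stood at 3.34, 3.48 and 3.91 TPM in untreated and 36.4, 43.6 and 48.9 TPM in treated libraries, a 12-fold higher mean (log2 change 3.26, SE 0.18, adjusted p = 4.03e-09). PSCA, a lipid-anchored surface antigen, stood at 5.89, 7.87 and 6.23 TPM in untreated and 47.5, 75.8 and 66.5 TPM in treated libraries, 9.49-fold higher (log2 change 3.05, SE 0.20, adjusted p = 1.99e-08). For both genes the lowest treated value was at least 6 times the highest untreated value.

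DIO3OS, a long non-coding RNA, rose from 8.26 ± 1.11 to 85.8 ± 8.18 TPM and its neighbour DIO3, the deiodinase that inactivates thyroid hormone, from 4.21 ± 0.691 to 36.3 ± 9.51 TPM (log2 changes 3.23 and 2.81). In GENCODE release 29 (GRCh38) DIO3OS lies on the minus strand of chromosome 14 (chr14:101552221-101560431) and DIO3 on the plus strand (chr14:101561351-101563452). The 2 genes do not overlap in this annotation. The annotation behind the TPM and the use of strand in counting are not given in the sources used here. UPK2, a uroplakin of urothelial surface plaques, rose from 1.69 ± 0.791 to 18.6 ± 3.93 TPM, and SLC2A5, the fructose transporter GLUT5, from 0.702 ± 0.534 to 9.68 ± 1.76 TPM. ALPP, placental alkaline phosphatase, rose from 5.49 ± 1.96 to 36.1 ± 11.5 TPM, CALML5, a calmodulin-like protein of epidermis, from 0.119 ± 0.206 to 5.42 ± 0.299 TPM, the myosin light chain gene MYL11 from 0.224 ± 0.195 to 7.02 ± 3.08 TPM and the long non-coding RNA APPAT from 1.33 ± 0.12 to 13.2 ± 4.42 TPM. PCOTH rose from 2.23 ± 0.179 to 21.8 ± 2.61 TPM and C1QTNF9B from 0.348 ± 0.304 to 6.86 ± 0.20 TPM. In the same annotation these 2 genes overlap on opposite strands of chromosome 13 (chr13:23888889-23897263 and chr13:23890525-23902655) and C1QTNF9B has a near-identical copy, so both values are uncertain. The pseudogene BPTFP1 and the mitochondrial tRNA gene MT-TL1 were listed at 0 in every untreated library. They had 5.23, 27.2 and 8.45 TPM and 7.16, 4.0 and 10.1 TPM in the treated libraries. BPTFP1, MT-TL1, UPK2, SLC2A5, CALML5, MYL11 and C1QTNF9B met the minimum only with the treated libraries, where they are high.

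**Figure D1:**
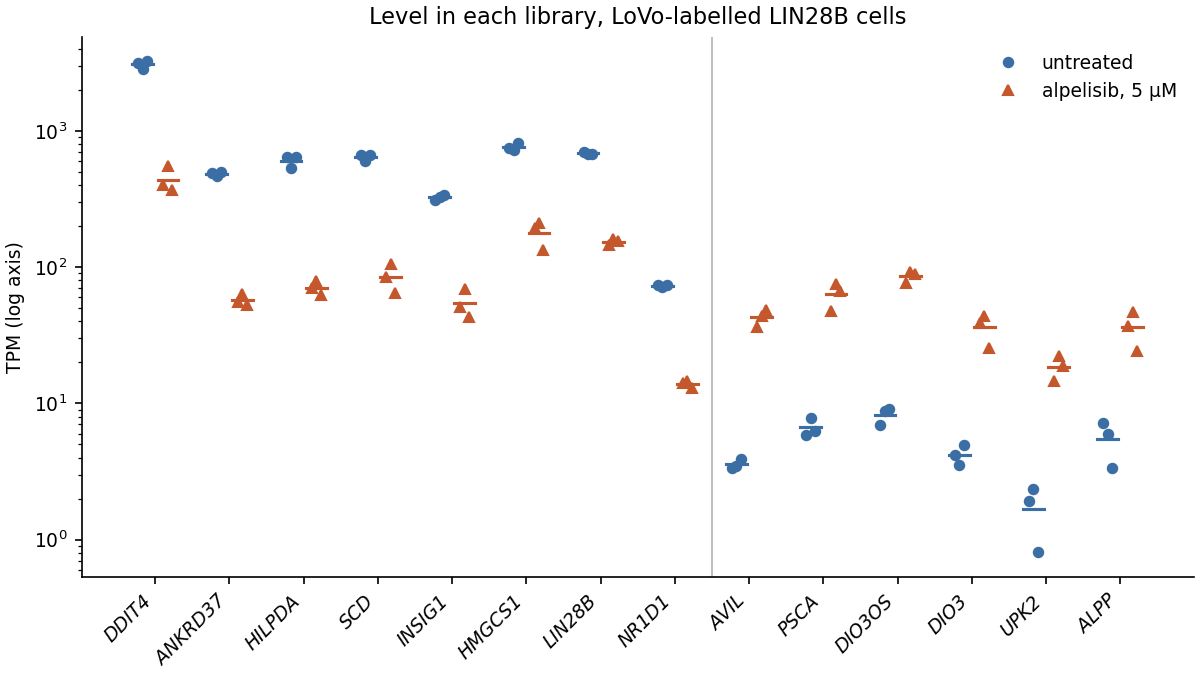
TPM in each of the 6 libraries (log axis) for 8 genes among the largest falls and 6 among the largest rises, with untreated libraries as circles, alpelisib libraries as triangles and horizontal bars at the group means. The genes were named only from those whose groups do not overlap. DDIT4 lies at 2882 to 3258 TPM untreated and 367 to 553 TPM treated and AVIL at 3.34 to 3.91 and 36.4 to 48.9 TPM.

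The counts for genes of the targeted pathway stand beside background shares of 16.9% higher and 28.6% lower over all genes. Of the 12 genes of PI3K catalytic and regulatory subunits tested, out of 16 listed, 0 rose and 5 fell (41.7%, median log2 change -0.31, against -0.092 over all genes). Without untreated replicate 3, treated replicate 2 or treated replicate 3, 3 fell. PIK3CA went from 15 ± 0.623 to 12.1 ± 1.42 TPM and was not called (log2 change -0.29, SE 0.15, adjusted p = 0.118), though the groups did not overlap. PIK3CB, which encodes the beta isoform, fell from 16.6 ± 1.69 to 10.6 ± 2.36 TPM (log2 change -0.62, SE 0.15, adjusted p = 0.00286), and PIK3R1, which encodes the regulatory subunit p85-alpha, from 23.2 ± 1.88 to 12.2 ± 2.52 TPM (log2 change -0.90, SE 0.16, adjusted p = 0.000311).

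In the AKT and mTOR modules 2 of 25 genes tested rose and 11 fell (median -0.24), and the counts ranged from 0 to 2 and from 6 to 11 over the fits without 1 library, lowest without untreated replicate 3 and treated replicate 3. Without untreated replicate 1, 7 fell. EIF4EBP1, the translation repressor that mTOR complex 1 inactivates, fell from 95.3 ± 4.97 to 46.4 ± 1.24 TPM (log2 change -1.02), GSK3B, a kinase that AKT inhibits, from 32.7 ± 1.28 to 15.2 ± 3.02 TPM (-1.07), and RPS6KB1, the S6 kinase, from 31.4 ± 9.33 to 17.5 ± 3.06 TPM (-0.78). AKT2 rose from 78.5 ± 5.61 to 95 ± 4.74 TPM (log2 change 0.27, SE 0.08, adjusted p = 0.0141) and was not called without untreated replicate 3 (adjusted p = 0.0593). RPS6KB1 was not called without untreated replicate 1 or treated replicate 3 (adjusted p = 0.0621 to 0.0737). AKT1 was at 101 ± 4.82 to 84.9 ± 7.06 TPM and was not called (log2 change -0.24, SE 0.10, adjusted p = 0.0555).

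Among receptor tyrosine kinases and adaptors 4 of 23 tested rose (17.4%) and 8 fell (34.8%), shares near the background (median -0.20), or 6 and 6 with median-of-ratios scaling and 4 and 5 without treated replicate 3. Those that rose were ERBB2 (101 ± 9.15 to 139 ± 24.8 TPM), its partner ERBB3 (59.7 ± 5.65 to 85.8 ± 5.91 TPM), the insulin receptor substrate IRS2 (3.1 ± 0.579 to 5.46 ± 0.894 TPM) and the fibroblast growth factor receptor FGFR3 (40.2 ± 5.68 to 79.5 ± 2.39 TPM). Their log2 changes were 0.45, 0.52, 0.66 and 0.98. ERBB2 was not called without untreated replicate 1 or 2 or treated replicate 1 or 2 (adjusted p = 0.0822 to 0.121). INSR, the insulin receptor, was at 6.17 ± 1.19 to 7.72 ± 0.81 TPM and was not called (log2 change 0.29, SE 0.18, adjusted p = 0.209). The receptor genes KIT (41.2 ± 3.08 to 22.4 ± 2.94 TPM), FGFR1 (18.4 ± 0.945 to 10.2 ± 0.515 TPM) and EPHA2 (63 ± 1.94 to 39 ± 2.6 TPM) fell.

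IRS2, INSR and ERBB3 are also known FOXO targets. Over the FOXO factors and targets 2 of 23 tested rose (8.7%, against 16.9% over all genes) and 8 fell (34.8%, against 28.6%). The median was -0.26, and the share of falls was near that over all genes. With median-of-ratios scaling 4 rose and 5 fell, and without treated replicate 1 or 3 the counts were 2 and 5. In the unscaled values those that rose were ERBB3 and IRS2. Members that fell included GADD45A, a growth arrest gene, at 134 ± 5.16 to 63.8 ± 5.81 TPM, TXNIP, an inhibitor of thioredoxin and glucose uptake, at 365 ± 22.9 to 193 ± 28.6 TPM, and FOXO1 and FOXO3 themselves at 6.18 ± 0.671 to 3.9 ± 0.468 and 19.4 ± 1.15 to 14.1 ± 1.88 TPM. The element GTAAACA lay in 3 of 20 promoters of the list (15%) and 2.42% of tested genes. Of these 3 list members TXNIP was called lower, and FOXO4 and BCL2L11 were not called.

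Of 28 hypoxia-response genes tested 25 fell and 1 rose (median -0.91), and BNIP3 and EPAS1 were not called (log2 changes -0.21 and 0.19). The background share of lower calls is 28.6%, and the counts were the same with median-of-ratios scaling and without treated replicate 3. Besides HILPDA, ANKRD37 and DDIT4, the falls included VEGFA, the angiogenic growth factor, at 559, 465 and 548 TPM in untreated and 201, 244 and 233 TPM in treated libraries (log2 change -1.21, SE 0.12, adjusted p = 8.31e-07). BHLHE40, a transcriptional repressor whose upstream sequence is printed above, stood at 324, 311 and 349 TPM in untreated and 82.6, 108 and 78.4 TPM in treated libraries (log2 change -1.87, SE 0.13, adjusted p = 3.7e-08). NDRG1, a stress-response gene, fell from 944 ± 174 to 336 ± 102 TPM, ADM, the peptide adrenomedullin, from 264 ± 7.12 to 84.1 ± 8.11 TPM, ERO1A, an oxidase for disulfide formation, from 191 ± 17.3 to 65.9 ± 11.3 TPM and ANGPTL4, an inhibitor of lipoprotein lipase, from 317 ± 43.4 to 82.8 ± 16.1 TPM. HIF1A and its partner ARNT fell too, from 54 ± 1.94 to 28.5 ± 5.03 and 41.1 ± 3.96 to 22.2 ± 8.47 TPM (log2 changes -0.91 and -0.92). The member that rose was CA12, a membrane carbonic anhydrase, from 10.7 ± 0.314 to 34.8 ± 0.789 TPM (log2 change 1.62, SE 0.15, adjusted p = 7.26e-07), while CA9 fell from 3.19 ± 2.06 to 0.819 ± 0.523 TPM. CA9 met the minimum only with the untreated libraries, where it is high, which favours a fall in this count. The 8 hypoxia-list genes with the TACGTG core were among the 25 called lower, with log2 changes from -3.07 for ANKRD37 to -0.57 for PLOD2. Of the whole list 89.3% was called lower, so this count does not set apart members with the core. Over all tested genes with a promoter, the core lay in 4.54% of those called lower and 3.13% of those called higher, against 3.54%.

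Of 24 glycolysis genes tested, 22 fell and 0 rose (median -1.07), and 21 fell without treated replicate 3. Summed over the list, the level was 33466 to 37140 TPM untreated and 18579 to 22744 TPM treated. LDHA, which makes lactate, stood at 3061, 2810.3 and 3355 TPM in untreated and 1462, 1524 and 1306 TPM in treated libraries (log2 change -1.1, SE 0.13, adjusted p = 9.17e-06), and SLC2A1, the glucose transporter GLUT1, at 1273, 842 and 1228 TPM in untreated and 509, 739 and 367 TPM in treated libraries (log2 change -1.08, SE 0.23, adjusted p = 0.00114). HK2, the first enzyme, fell from 159 ± 13.5 to 53.9 ± 7.3 TPM, GPI from 1210.1 ± 122 to 468 ± 68.5 TPM, PGK1 from 1094 ± 110.2 to 439 ± 69.2 TPM and the lactate exporter SLC16A3 from 429 ± 52.4 to 201 ± 54.3 TPM. ENO2, whose upstream sequence is printed above, stood at 290.3, 289 and 329 TPM in untreated and 109, 130.5 and 122 TPM in treated libraries (log2 change -1.32, SE 0.09, adjusted p = 2.75e-08). GAPDH, the most abundant member, fell from 11813 ± 131 to 7505 ± 643 TPM (log2 change -0.66). The members not called were the transporter gene SLC16A1 at 92.3 ± 16.2 to 75.6 ± 11.2 TPM and the liver-type phosphofructokinase gene PFKL at 261 ± 20.5 to 231 ± 23.1 TPM. TACGTG lay in 2 of 22 promoters of this list (9.09%), those of ENO2 and ALDOC. In the pentose phosphate pathway 6 of 7 genes fell and 1 rose. PGLS, its lactonase, rose from 64.4 ± 3.03 to 114 ± 6.66 TPM.

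Most sterol synthesis genes fell, with 18 of 22 lower and 0 higher (median -1.01). With median-of-ratios scaling 18 fell and 1, TM7SF2, rose. FDFT1, which commits farnesyl units to squalene, stood at 686, 587 and 685 TPM in untreated and 200.2, 249 and 152 TPM in treated libraries (log2 change -1.72, SE 0.17, adjusted p = 1.02e-06). IDI1 fell from 179.9 ± 17.5 to 58 ± 12 TPM, MSMO1 from 343 ± 8.94 to 110.3 ± 15 TPM and FDPS from 691 ± 9.96 to 282 ± 22.7 TPM. Of the 18 genes of sterol sensing, uptake and export, 11 fell and 1 rose (median -0.59), or 10 and 4 after median-of-ratios scaling, with 2 higher without treated replicate 1 and 0 without untreated replicate 2. The sterol carrier gene STARD4 fell from 144 ± 10.5 to 38.5 ± 5.96 TPM. The transcription factors SREBF1 and SREBF2 fell from 264 ± 33.3 to 131 ± 22.8 and 134 ± 7.18 to 88.7 ± 21.9 TPM. NR1H3, the oxysterol receptor LXR-alpha, was the member that rose (15.9 ± 2.06 to 22.9 ± 3.16 TPM), and it was not called without untreated replicate 2 (adjusted p = 0.0517). The sterol element TCACNCCAC was in 0 of 17 promoters of the synthesis enzymes and 1 of 15 of the sensing list, against 1.07% of tested genes.

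For fatty acid synthesis 13 of 23 genes fell and 2 rose (median -0.49), and the counts were the same with median-of-ratios scaling and without treated replicate 3. FASN, fatty acid synthase, stood at 254, 217 and 194 TPM in untreated and 97.8, 107 and 94.9 TPM in treated libraries (log2 change -1.14, SE 0.10, adjusted p = 5.06e-07). ACLY, which makes cytosolic acetyl-CoA from citrate, fell from 159.9 ± 11.9 to 62.9 ± 10.2 TPM, ACACA, the first committed enzyme, from 43.7 ± 2.16 to 22.8 ± 2.37 TPM and ACSS2, which makes acetyl-CoA from acetate, from 494 ± 13.7 to 166 ± 5.35 TPM. ACSL5, an acyl-CoA synthetase, and FADS3 rose, from 47.6 ± 6.46 to 72.3 ± 1.43 and 33.3 ± 2.66 to 55.9 ± 9.16 TPM. Of 22 fatty acid oxidation genes tested 13 fell as well and 2 rose (median -0.36). Without treated replicate 3, 9 fell and 1 rose, and with median-of-ratios scaling 10 fell and 4 rose. ACADVL rose from 1009.7 ± 45.2 to 1263 ± 147 TPM but was not called without treated replicate 3 (adjusted p = 0.064), while PPARA, the fatty acid sensor, fell from 15.3 ± 2.13 to 7.03 ± 1.58 TPM and CPT2 from 28.4 ± 2.48 to 16.4 ± 2.76 TPM. Among lipid droplet genes 3 of 13 fell and 1 rose. The riser was PNPLA2, adipose triglyceride lipase, at 97.8, 99 and 96.1 TPM in untreated and 183, 208 and 206 TPM in treated libraries (log2 change 1.02, SE 0.09, adjusted p = 4.68e-07), while its activator ABHD5 fell from 17.3 ± 1.68 to 8.46 ± 2.03 TPM.

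**Figure D2:**
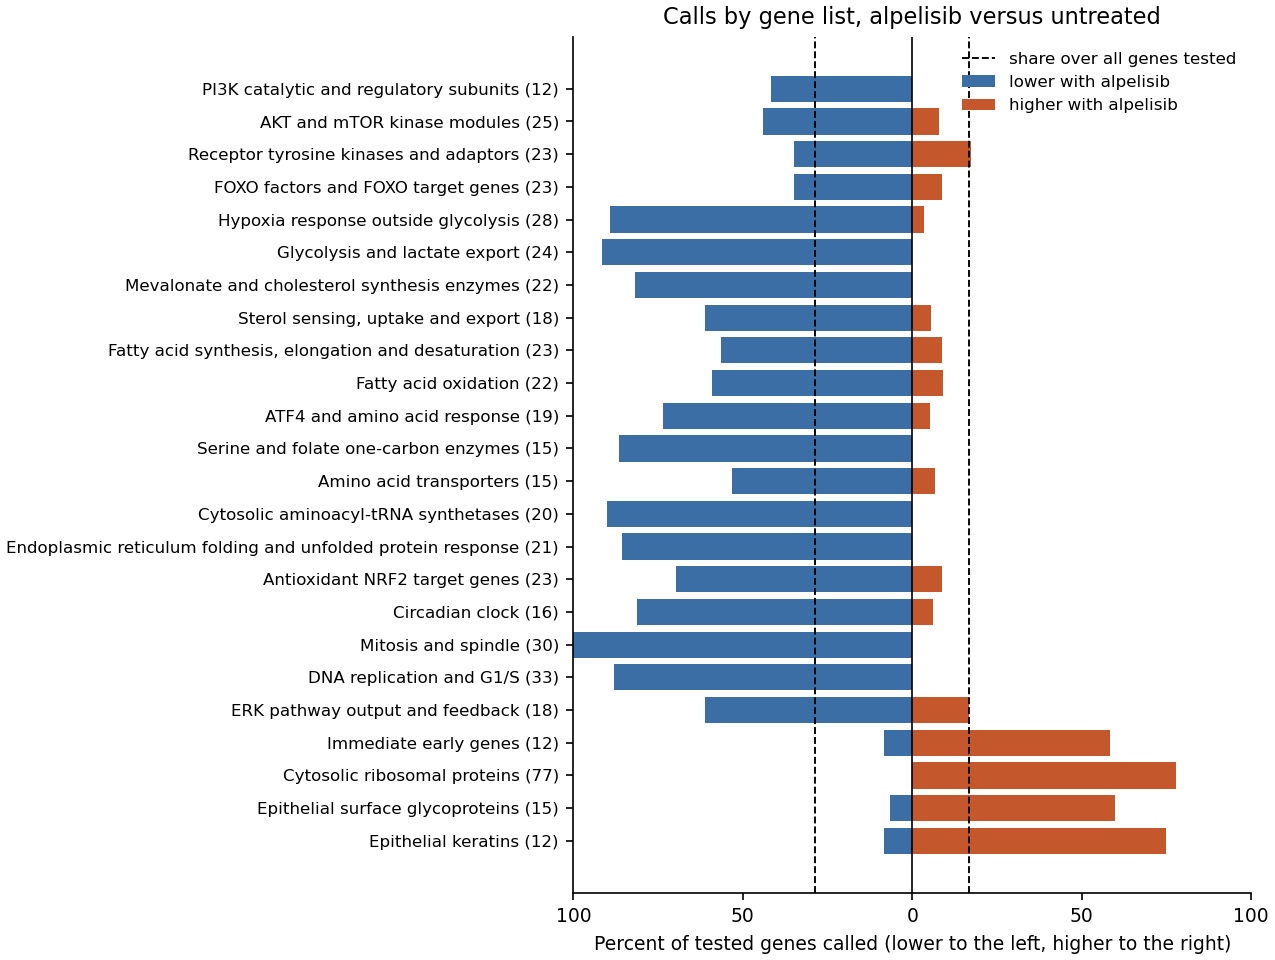
Percent of tested genes called higher (right) and lower (left) in each of 24 gene lists, with the number tested beside each name and dashed lines at the shares over all 16079 genes, 16.9% higher and 28.6% lower. Mitosis reached 100% lower and glycolysis 91.7%, while ribosomal proteins reached 77.9% higher.

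Among genes of amino acid supply falls outnumbered rises in each list, as they did over all genes (28.6% lower and 16.9% higher). ATF4 mRNA itself was not called. ATF4 stood at 512, 526 and 542 TPM in untreated and 520.4, 514 and 556 TPM in treated libraries (log2 change 0.01, SE 0.08, adjusted p = 0.941), and the 2 groups overlapped. Of 19 genes of the ATF4 response tested, 14 fell (73.7%) and 1 rose (5.26%, median -0.70), and 13 fell without treated replicate 3. ASNS, asparagine synthetase, stood at 101, 88.4 and 97.9 TPM in untreated and 30.0, 28.8 and 31.4 TPM in treated libraries (log2 change -1.64, SE 0.19, adjusted p = 5.3e-06). TRIB3, a pseudokinase that binds AKT, fell from 183 ± 14.8 to 77.2 ± 7.55 TPM, ATF3 from 17.8 ± 2.44 to 5.69 ± 0.875 TPM, GPT2 from 44.2 ± 4.96 to 16.6 ± 1.14 TPM and GDF15, a stress hormone, from 1157 ± 116 to 519 ± 66.9 TPM. The member that rose was ATF5 (6.03 ± 2.39 to 13.1 ± 1.84 TPM). Among serine and folate enzymes 13 of 15 fell (86.7%) and 0 rose, or 10 fell without treated replicate 3. PSAT1, of serine synthesis, fell from 120.5 ± 11.1 to 38 ± 1.47 TPM and MTHFD2, of the mitochondrial folate cycle, from 209 ± 27.2 to 69 ± 7.73 TPM (log2 changes -1.63 and -1.58). Of 15 amino acid transporters 8 fell (53.3%) and 1 rose (6.67%), with 2 higher and 7 lower after median-of-ratios scaling. Without untreated replicate 1 or treated replicate 3, 5 fell and 1 rose, which is closer to the share of falls over all genes. SLC7A11, the cystine importer, fell from 8.27 ± 0.90 to 1.6 ± 0.146 TPM and SLC7A5, the leucine transporter, from 103 ± 14.1 to 51.8 ± 5.31 TPM. SLC7A8 rose from 56.1 ± 4.88 to 94.3 ± 12.3 TPM.

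Of the 20 cytosolic aminoacyl-tRNA synthetases, which charge tRNAs with amino acids, 18 fell and 0 rose (median -0.83). The count was 18 without treated replicate 3 and 17 with median-of-ratios scaling. GARS1 stood at 133, 110.4 and 134 TPM in untreated and 49.9, 50.9 and 39.1 TPM in treated libraries (log2 change -1.42, SE 0.17, adjusted p = 6.71e-06), and AARS1 and IARS1, both shown above, fell from 75.8 ± 11.9 to 35.9 ± 5.64 and 90.7 ± 5.44 to 45 ± 3.21 TPM. Genes of endoplasmic reticulum folding and the unfolded protein response fell in 18 of 21 cases, with 0 higher (median -0.88). The chaperone BiP gene HSPA5 stood at 534, 442 and 540.3 TPM in untreated and 214, 194 and 165 TPM in treated libraries (log2 change -1.4, SE 0.14, adjusted p = 1.34e-06), HYOU1 fell from 75.7 ± 12.8 to 28.8 ± 4.66 TPM and HERPUD1, of protein degradation, from 120.2 ± 18 to 52.2 ± 9.29 TPM.

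NRF2 targets of antioxidant defence fell in 16 of 23 cases and rose in 2 (median -0.62). NQO1, a quinone reductase, stood at 268, 238 and 261 TPM in untreated and 87.2, 75.7 and 72.4 TPM in treated libraries (log2 change -1.69, SE 0.11, adjusted p = 1.98e-08), and TXNRD1, thioredoxin reductase, fell from 121 ± 17.6 to 35.8 ± 7.55 TPM. NFE2L2, which encodes NRF2, fell from 73.2 ± 6.07 to 53.9 ± 4.18 TPM and KEAP1, its inhibitor, rose from 44.7 ± 2.82 to 59.2 ± 5.28 TPM. Circadian genes fell in 13 of 16 cases and rose in 1 (median -0.95), with 11 and 0 without treated replicate 3. The number higher was also 0 without untreated replicate 1 or 3 or treated replicate 2. The falls took in both arms of the clock, the activators BMAL1 (17 ± 3.36 to 5.27 ± 2.72 TPM) and CLOCK (12.1 ± 3.19 to 5.67 ± 0.116 TPM), and the repressors PER1 (86.9 ± 5.78 to 26.1 ± 2.65 TPM), CRY1 (10.5 ± 0.963 to 4.96 ± 0.603 TPM) and NR1D1. The time of day at harvest is not given in the sources used here. Lysosome and autophagy genes fell in 13 of 30 cases and rose in 1, among them RRAGD (13.3 ± 1.76 to 6.37 ± 1.54 TPM) and SQSTM1 (221 ± 33.4 to 138 ± 5.48 TPM), and 9 fell without treated replicate 3. With median-of-ratios scaling 2 rose and 11 fell. Arrestin-domain and glucose-sensing genes fell in 4 of 8 cases and rose in 1, or 2 with median-of-ratios scaling or without treated replicate 1, with ARRDC3 at 57.8 ± 4.49 to 19.9 ± 4.72 TPM.

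Most proliferation genes fell. In the mitosis and spindle list 30 of 30 genes were lower (median -0.96), 30 without treated replicate 3 and 29 with median-of-ratios scaling. MKI67, the proliferation antigen Ki-67, stood at 47, 38.6 and 39.6 TPM in untreated and 17.5, 16.9 and 13 TPM in treated libraries (log2 change -1.35, SE 0.13, adjusted p = 1.09e-06). AURKA, a spindle kinase, fell from 68.5 ± 4.64 to 28.5 ± 3.75 TPM, TPX2, its activator, from 88.8 ± 4.21 to 40.1 ± 7.33 TPM and TOP2A from 119 ± 6.02 to 63.7 ± 5.71 TPM. Of 33 replication and G1/S genes 29 fell and 0 rose (median -0.73), with 23 without treated replicate 3. CDC45, of the replicative helicase, fell from 28.4 ± 4.43 to 10.7 ± 1.63 TPM, MCM6 from 41.5 ± 4.01 to 17.1 ± 3.41 TPM and RRM1 from 121 ± 24.4 to 56.3 ± 12.5 TPM. Of 24 cyclins, kinases and inhibitors 15 fell and 0 rose, or 12 and 1 without treated replicate 3. CCND1, cyclin D1, fell from 155 ± 14.6 to 101 ± 15.8 TPM (log2 change -0.61, SE 0.13, adjusted p = 0.00118), and so did CCNA2 (53.5 ± 1.48 to 21.5 ± 3.08 TPM) and CDK1 (104 ± 3.54 to 47.1 ± 6.46 TPM). The inhibitors p21 (CDKN1A) and p57 (CDKN1C) fell as well, from 65.1 ± 1.94 to 26.3 ± 2.96 and 62.2 ± 0.592 to 26.5 ± 2.17 TPM. In bulk libraries fewer cells in cycle and less of each mRNA per cell cannot be told apart.

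Immediate early genes were called higher more often than lower. Of 12 tested, 7 rose and 1 fell (median 0.83), and 8 rose without treated replicate 3, against a background of 16.9% higher. FOS stood at 105, 99.1 and 81.4 TPM in untreated and 254, 267 and 271 TPM in treated libraries (log2 change 1.47, SE 0.19, adjusted p = 1.66e-05), and JUN rose from 64.3 ± 2.64 to 151 ± 20.2 TPM, FOSB from 2.51 ± 0.858 to 10.5 ± 3.22 TPM, IER2 from 133 ± 8.68 to 279 ± 37.6 TPM and EGR1 from 95 ± 7.58 to 192 ± 18 TPM. These encode short-lived transcription factors and regulators induced by growth stimuli and stress. ATF3 was the member that fell. ERK pathway outputs were mixed, with 3 of 18 higher and 11 lower (median -0.47). SPRY4, a feedback inhibitor of receptor signalling, stood at 5.9, 6.67 and 6.7 TPM in untreated and 28.8, 27.9 and 26 TPM in treated libraries (log2 change 1.94, SE 0.09, adjusted p = 7.55e-10), while ETV5 fell from 5.62 ± 0.412 to 2.13 ± 1.03 TPM, DUSP5, an ERK phosphatase, from 24.9 ± 1.04 to 9.89 ± 0.729 TPM and PHLDA1 from 74.4 ± 2.4 to 32 ± 1.61 TPM. MYC, the growth-promoting transcription factor, rose from 37.9 ± 0.268 to 58.2 ± 13.2 TPM (log2 change 0.58, SE 0.18, adjusted p = 0.0156) and was not called without treated replicate 1 or 2 (adjusted p = 0.0625 to 0.0719).

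Most ribosomal protein genes rose, and most nucleolar genes of ribosome assembly did not. Of 77 tested, 60 rose and 0 fell (median 0.40), with 61 without treated replicate 3 and 71 with median-of-ratios scaling. Their summed level was 183564 to 187823 TPM untreated and 239801 to 248144 TPM treated, so that the 2 groups did not overlap. RPS6, the protein phosphorylated by S6 kinase, stood at 2265, 2632 and 2307 TPM in untreated and 3598, 3551 and 4504 TPM in treated libraries (log2 change 0.69, SE 0.09, adjusted p = 1.63e-05), and RPL13 rose from 2168 ± 75.5 to 3424 ± 206 TPM. Many of these genes have near-identical pseudogenes, which the counting could share reads with. TPM are shares of a library, so a gain in one set of genes is offset by a loss in others. Nucleolar genes of ribosome assembly rose in 2 of 28 cases and fell in 11 (median -0.21), or 6 and 8 with median-of-ratios scaling and 2 and 5 without treated replicate 3. Without untreated replicate 1, 4 fell, and without treated replicate 1, 1 rose. NCL, nucleolin, fell from 405 ± 26.8 to 331 ± 17.4 TPM, POLR1A, the large subunit of RNA polymerase I, from 11.2 ± 3.06 to 5.73 ± 1.48 TPM and NOLC1 from 55.5 ± 4.96 to 33.3 ± 5.94 TPM, and NOP56 rose from 72 ± 8.55 to 98.2 ± 4.4 TPM. NCL was not called without untreated replicate 1 (adjusted p = 0.0655). Translation factors rose in 3 of 36 cases and fell in 15, or 9 and 13 with median-of-ratios scaling, and 1 rose without untreated replicate 3. EIF4E, which binds the mRNA cap, stood at 83.4, 73.1 and 91.3 TPM in untreated and 34, 31.5 and 25.8 TPM in treated libraries (log2 change -1.41, SE 0.19, adjusted p = 2.03e-05), while PABPC1, the poly(A)-binding protein, rose from 1024 ± 39.3 to 1351 ± 89.1 TPM. Mitochondrially encoded genes were called higher in 2 of 13 cases, and without treated replicate 3 in 0, with 2 lower. The number higher was 0 without untreated replicate 3, with 1 lower, 1 without untreated replicate 1 and 4 without untreated replicate 2 or treated replicate 2.

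**Figure D3:**
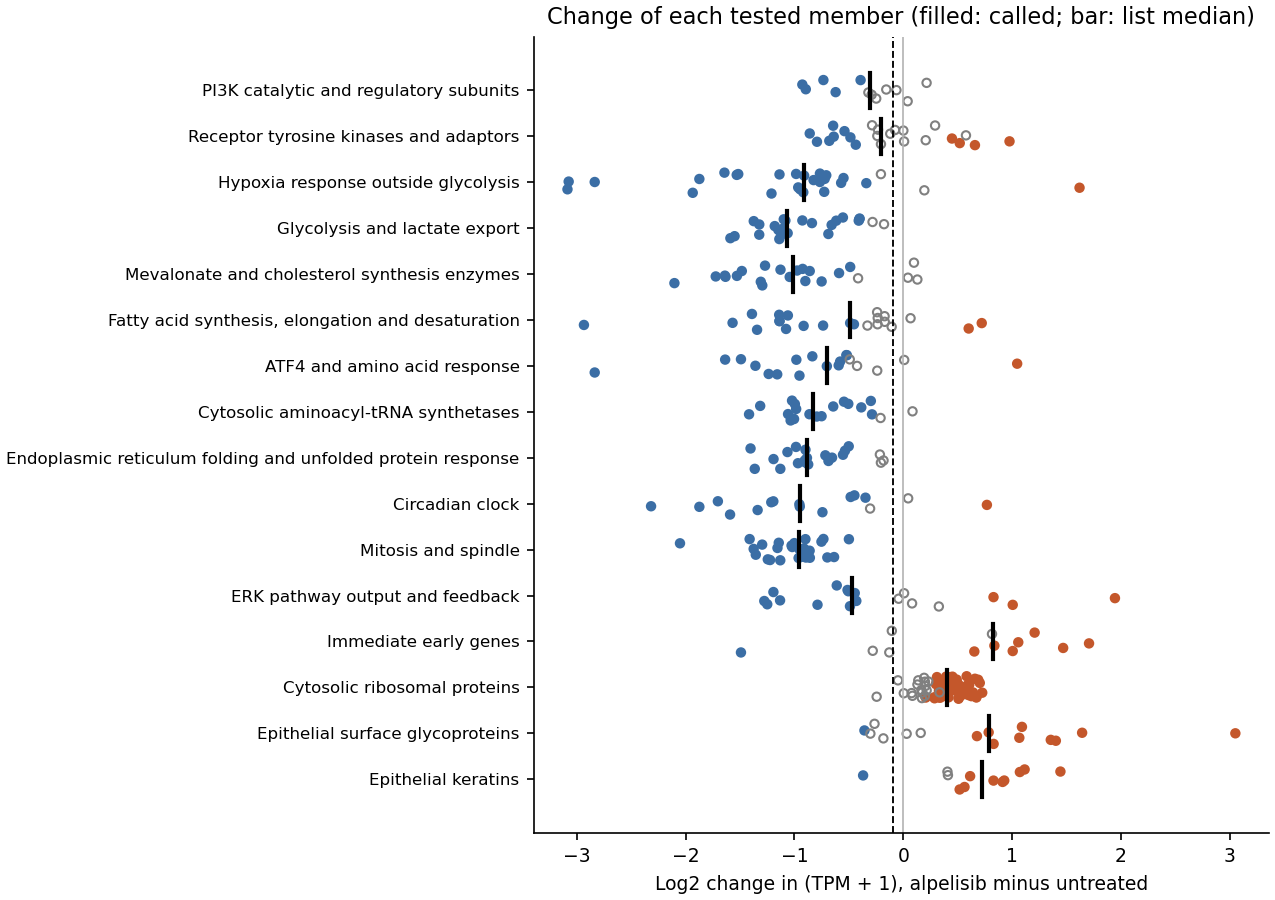
Log2 change with alpelisib of each tested gene in 16 lists (points, filled where called), with the list median as a vertical bar and a dashed line at the median of all genes, -0.092. The mitosis members all lie below 0, the ribosomal protein members mostly above it, and the ERK list spreads from -1.28 for ETV1 to 1.94 for SPRY4. ETV1 met the minimum only with the untreated libraries, where it is high.

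Of 15 surface glycoprotein genes tested, 9 rose and 1 fell (median 0.78), and with median-of-ratios scaling 10 rose and 0 fell. Without treated replicate 3, 2 fell, and without untreated replicate 2 or 3 or treated replicate 1, 0 fell. CD24, a mucin-like adhesion molecule, stood at 273, 279 and 279.6 TPM in untreated and 902, 886 and 817 TPM in treated libraries (log2 change 1.64, SE 0.10, adjusted p = 6.76e-09). CEACAM5, the carcinoembryonic antigen, rose from 28.8 ± 10.6 to 49.1 ± 11.1 TPM, CEACAM6 from 4.14 ± 0.287 to 12.2 ± 1.3 TPM and LY6G6D, a colorectal cancer antigen, from 104 ± 22.1 to 275 ± 43 TPM. CEACAM5 was not called without untreated replicate 3 or treated replicate 2 (adjusted p = 0.0624 to 0.0846). CEACAM genes share sequence, so their reads may be split between copies. Of 12 keratin genes tested 9 rose and 1 fell (median 0.72). KRT18 stood at 1736, 1774 and 1669 TPM in untreated and 3437, 3941 and 3858 TPM in treated libraries (log2 change 1.11, SE 0.06, adjusted p = 4.03e-09), its partner KRT8 rose from 2944 ± 78 to 5236 ± 365 TPM and KRT13 from 3.79 ± 1.79 to 11.7 ± 2.75 TPM, whereas KRT19 fell from 4737 ± 221 to 3681 ± 421 TPM.

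Markers of mature gut cell types moved in part. Of 23 goblet and secretory genes listed 15 were tested, of which 5 rose and 2 fell (median 0.18). REG4, a secreted lectin, stood at 50.6, 55.9 and 54.6 TPM in untreated and 117, 136 and 142 TPM in treated libraries (log2 change 1.27, SE 0.17, adjusted p = 2.09e-05), and MUC20, a membrane mucin, rose from 50.6 ± 0.212 to 144 ± 15.4 TPM. MUC2, the gel-forming mucin that defines goblet cells, rose from 0.851 ± 0.189 to 3.96 ± 0.751 TPM. SPINK1 was listed at 0 in every untreated library and had 1.95, 2.56 and 2.64 TPM in the treated ones. Neither MUC2 nor SPINK1 would have met the minimum without the treated libraries, where they are high, which favours rises in this count. AGR2, an oxidoreductase of mucin folding, fell from 527 ± 48.8 to 301 ± 65 TPM and LCN2 from 138 ± 8.73 to 64.1 ± 4.28 TPM. Of 26 enterocyte genes 9 were tested, 2 rose and 1 fell. PHGR1 rose from 42.6 ± 1.41 to 132 ± 20.6 TPM and KRT20 from 4.72 ± 0.347 to 7.48 ± 0.956 TPM, and VIL1, villin, fell from 24.8 ± 1.69 to 13.6 ± 2.85 TPM. Of 19 tuft cell genes 5 were tested and 2 rose, AVIL and ALOX5 (4.01 ± 2.19 to 10.0 ± 1.92 TPM, log2 change 1.24). ALOX5 was not called with a pseudocount of 0.1 (limma, adjusted p = 0.0757). POU2F3, the factor that specifies tuft cells, was at 1.45 ± 0.601 to 2.18 ± 0.482 TPM and was not called. Of 15 enteroendocrine genes 1 was tested, SCG5, which rose from 65.7 ± 11.9 to 128 ± 16.4 TPM.

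Of 18 stem cell and Wnt target genes 6 rose and 4 fell (median 0.04), or 8 and 3 with median-of-ratios scaling. LGR5, the stem cell receptor, stood at 5.94, 6.55 and 6.1 TPM in untreated and 16.9, 17.1 and 15.4 TPM in treated libraries (log2 change 1.28, SE 0.11, adjusted p = 3.95e-07), AXIN2, a feedback target of Wnt, rose from 275 ± 15 to 454 ± 70.0 TPM and PROM1 (CD133) from 1.62 ± 0.679 to 6.82 ± 1.43 TPM. ZNRF3 and RNF43, which clear Wnt receptors, fell from 15.6 ± 3.04 to 7.38 ± 0.825 and 102 ± 3.78 to 62 ± 5.93 TPM. Of 15 intestinal transcription factors 7 rose and 4 fell. ELF3, an epithelial ETS factor, stood at 1559, 1663 and 1621 TPM in untreated and 2514, 3154 and 3176 TPM in treated libraries (log2 change 0.86, SE 0.09, adjusted p = 3.08e-06), CDX2, the intestinal identity factor, rose from 402 ± 53.8 to 627 ± 75.4 TPM and KLF5 from 197 ± 5.53 to 284 ± 13.4 TPM, whereas HNF4A fell from 37.4 ± 1.47 to 27.2 ± 4.33 TPM and FOXA2 from 7.87 ± 0.633 to 3.55 ± 0.22 TPM. HNF4A was not called without treated replicate 3 (adjusted p = 0.0513).

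Remaining groups were mixed, and many of their shares lay near the background of 16.9% higher and 28.6% lower. LGALS3, galectin-3, rose from 1153 ± 43.4 to 2124 ± 168 TPM while LGALS1 fell, in a galectin and S100 list with 5 of 17 higher and 3 lower, or 8 and 3 with median-of-ratios scaling. S100A10, an annexin partner, rose from 1087 ± 78.1 to 1912 ± 252 TPM. Notch genes rose in 3 of 12 cases, HES1 (88.1 ± 12.5 to 153 ± 19.2 TPM) among them, and fell in 2. Of 16 claudin and tight junction genes 3 rose and 5 fell, with CLDN4 up from 387 ± 19.9 to 531 ± 72.3 TPM and CLDN2 down from 6.03 ± 0.61 to 2.6 ± 0.433 TPM. With median-of-ratios scaling 5 rose and 4 fell. Epithelial-mesenchymal regulators rose in 3 of 17 cases and fell in 4, or 2 without untreated replicate 3 or treated replicate 3, with SNAI1, a repressor of E-cadherin, down from 5.65 ± 0.424 to 2.8 ± 0.329 TPM and OVOL2, which opposes it, up from 5.63 ± 0.839 to 10.2 ± 1.23 TPM.

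Among BCL2 family genes 2 of 12 rose and 4 fell (33.3%), with 3 and 2 after median-of-ratios scaling and 2 and 2 without untreated replicate 1 or treated replicate 3. The survival gene BCL2L1 rose from 123 ± 8.63 to 226 ± 27.8 TPM and the death-promoting BMF from 17.3 ± 0.466 to 33.8 ± 0.947 TPM, and PMAIP1 (NOXA) fell from 19 ± 1.84 to 9.82 ± 0.926 TPM. Targets of p53 rose in 1 of 20 cases, TP53I3 (30.0 ± 0.889 to 71.3 ± 5.61 TPM), and fell in 7 (35%, against 28.6% over all genes), among them TNFRSF10B (89.4 ± 2.59 to 41.4 ± 3.26 TPM) and FAS (6.31 ± 1.34 to 2.56 ± 0.401 TPM). With median-of-ratios scaling 3 rose. Interferon genes rose in 3 of 26 cases and fell in 10 (38.5%), with 1 higher without untreated replicate 1 or treated replicate 1, and ISG20 was the largest fall (19.2 ± 2.92 to 6.77 ± 1.77 TPM). MHC class I genes rose in 4 of 19 cases, PSMB10 (20.5 ± 1.41 to 39.2 ± 2.07 TPM) first, and fell in 3, B2M (156 ± 7.56 to 104 ± 6.6 TPM) first, or 6 and 1 with median-of-ratios scaling. Without untreated replicate 2, 2 rose. Chemokine genes fell in 3 of 9 cases (33.3%, against 28.6% over all genes), CXCL5 (461 ± 24.7 to 159 ± 24.2 TPM), CXCL8 (23.1 ± 2.95 to 8.88 ± 1.76 TPM) and CX3CL1 (11.2 ± 1.43 to 4.93 ± 1.3 TPM), and rose in 0, or in 1 without treated replicate 2. Metallothioneins and zinc transporters split, 4 of 15 higher and 6 lower, with MT1G up from 3.54 ± 2.35 to 9.04 ± 2.91 TPM and MT1X down from 96.1 ± 11.6 to 45.7 ± 10.2 TPM. MT1G was not called without untreated replicate 1 or treated replicate 3 (adjusted p = 0.0602 to 0.0912). Metallothionein copies are alike in sequence, so the split is uncertain.

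Targets of let-7 moved in both directions, at shares near those over all genes. Of 22 tested in the let-7 and LIN28 list, 4 rose (18.2%, against 16.9%) and 8 fell (36.4%, against 28.6%), with a median of -0.18. LIN28B itself was among those that fell. The number higher was 2 without untreated replicate 1 and 1 without treated replicate 2. HMGA2, a chromatin protein and classic let-7 target, rose from 25.3 ± 2.41 to 31.7 ± 3.25 TPM (log2 change 0.32, SE 0.11, adjusted p = 0.0304), but was not called without untreated replicate 1 or 3 or treated replicate 1 or 2 (adjusted p = 0.0749 to 0.12). HRAS rose from 49.2 ± 1.62 to 75.3 ± 4.85 TPM. HMGA1 fell from 304 ± 34.1 to 201 ± 37.7 TPM and IGF2BP2, an RNA-binding protein, from 94.9 ± 7.84 to 75.2 ± 3.52 TPM. IGF2BP1 lay below the minimum, at 0.573 ± 0.113 to 1.12 ± 0.635 TPM.

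The same drug and dose in DLD-1 LIN28B cells, with 3 libraries a group and none shared, called 5814 of the same genes (36.2%). Over all 16079 genes tested, 1666 were called higher and 4148 lower in DLD-1. Of the 2719 genes higher here 46.1% were also higher in DLD-1, which is 75.3% of those 1666. Of the 4602 lower here 69.2% were also lower in DLD-1, 76.8% of those 4148. Opposite calls numbered 17 and 3. The difference between the 2 effects was itself called for 170 genes (1.06%), with the LoVo-labelled change higher for 126 (0.784%) and lower for 44 (0.274%). With replicate numbers as a block it was called for 41, and leaving out single libraries gave 104 to 184.

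Of the 20 genes taken by rule for this test, namely the 10 largest rises and 10 largest falls with the markers among them, 6 were called. The 20 were picked by their change in LoVo-labelled cells, which is part of the difference, so the choice favours a larger change there. All 6 called had the larger change in LoVo-labelled cells. DIO3OS rose by 3.23 here and 1.55 in DLD-1 on the log2 scale (difference 1.68, SE 0.16, adjusted p = 7.37e-05), and DIO3 by 2.81 and 0.86 (difference 1.95, SE 0.28, adjusted p = 0.00312). AVIL rose in both, from 3.58 ± 0.297 to 43 ± 6.27 TPM here and from 6.51 ± 0.955 to 29.3 ± 3.35 TPM in DLD-1 (difference 1.24, SE 0.26, adjusted p = 0.0245), and PSCA from 6.66 ± 1.06 to 63.3 ± 14.4 TPM and from 2.85 ± 0.93 to 10.9 ± 0.799 TPM (difference 1.4, SE 0.28, adjusted p = 0.0214). Both of these differences were lost in several of the fits that left out 1 library, the difference for AVIL not called without untreated replicate 1 or 2 or treated replicate 2 or 3 or DLD-1 untreated replicate 1 or 2 or DLD-1 treated replicate 1 or 3 (adjusted p = 0.0557 to 0.0715) and that for PSCA not called without untreated replicate 1 or 3 or treated replicate 2 or DLD-1 untreated replicate 3 or DLD-1 treated replicate 2 (adjusted p = 0.0548 to 0.0695). ANKRD37 fell more here than in DLD-1 (111 ± 19.4 to 25.4 ± 1.24 TPM there, difference -1.0, SE 0.17, adjusted p = 0.00682) and so did NR1D1 (33 ± 3.41 to 11 ± 0.978 TPM there, difference -0.82, SE 0.13, adjusted p = 0.00584). DDIT4 fell in DLD-1 from 1164 ± 179.9 to 96.2 ± 13.7 TPM, SCD from 735 ± 41.2 to 162 ± 16.5 TPM and INSIG1 from 229 ± 21.8 to 60.9 ± 2.07 TPM, and for these 3 markers the difference was not called (difference 0.75, SE 0.24, adjusted p = 0.158 for DDIT4, difference -0.75, SE 0.23, adjusted p = 0.141 for SCD, difference -0.70, SE 0.21, adjusted p = 0.121 for INSIG1). A difference that was not called does not show that the lines responded alike.

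Named after their values were seen, 4 further list members differed between the lines. REG4 rose from 3.14 ± 0.896 to 37.3 ± 2.53 TPM in DLD-1, a larger change than here (difference -1.96, SE 0.24, adjusted p = 0.00084). GDF15, which fell here, was at 434 ± 27.4 to 384 ± 8.32 TPM in DLD-1 (difference -0.98, SE 0.13, adjusted p = 0.00138), and MT2A, which fell here from 313 ± 23.7 to 189 ± 11.1 TPM, was at 363 ± 32 to 394 ± 31.4 TPM there (difference -0.84, SE 0.14, adjusted p = 0.00584). CHAC1, a glutathione-degrading ATF4 target, was at 11.5 ± 2.06 to 8.21 ± 0.322 TPM here, which was not called, and fell in DLD-1 from 30.8 ± 14.8 to 4.29 ± 0.925 TPM (difference 2.04, SE 0.46, adjusted p = 0.042). The CHAC1 difference was not called without untreated replicate 1 or 2 or 3 or treated replicate 1 or 2 or 3 or DLD-1 untreated replicate 1 or 3 or DLD-1 treated replicate 1 or 2 or 3 (adjusted p = 0.0547 to 0.111).

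**Figure D4:**
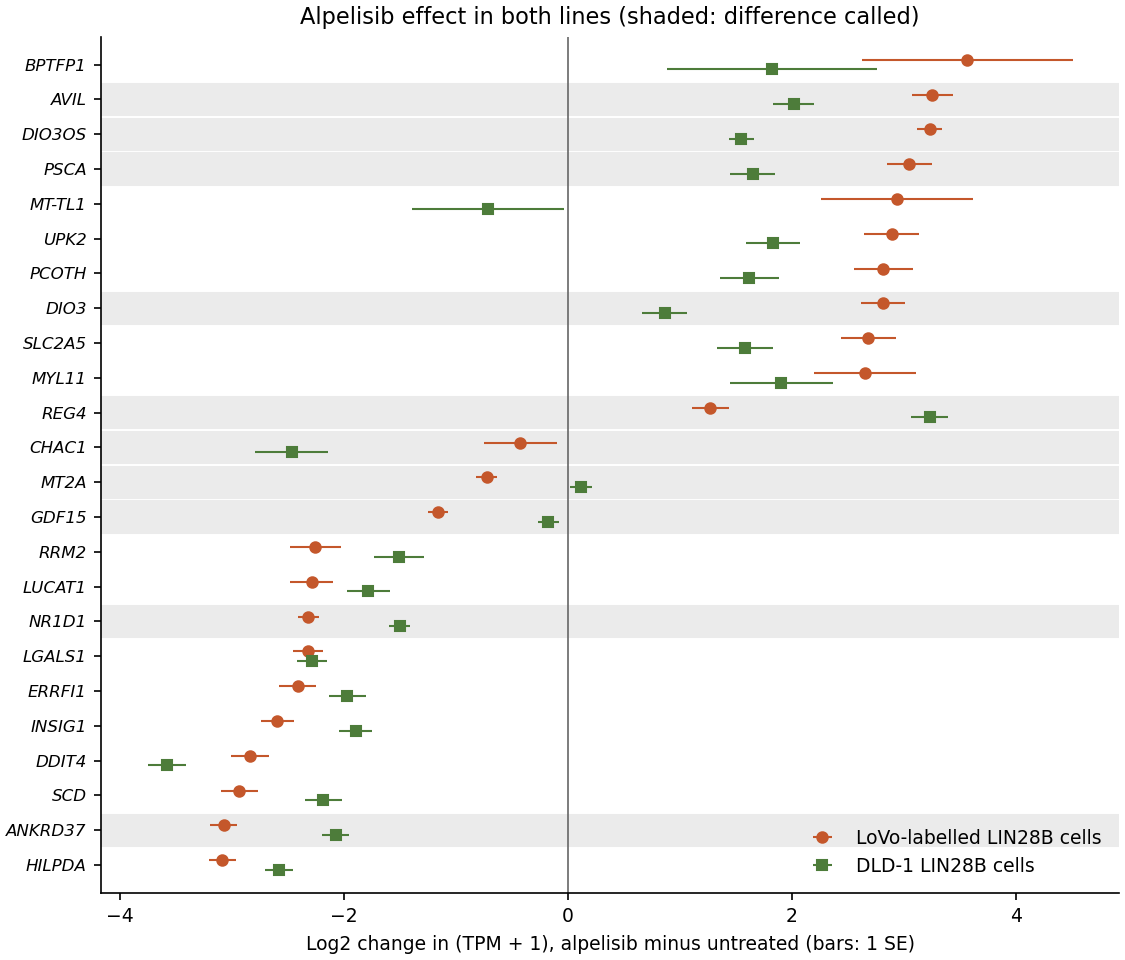
Log2 change with alpelisib for the 20 genes of the test and 4 further list members, in LoVo-labelled cells (circles) and DLD-1 cells (squares), with bars of 1 standard error and shading where the difference was called. DIO3, DIO3OS, PSCA and AVIL lie farther right in LoVo-labelled cells, REG4 farther right in DLD-1 cells, and the leading falls lie on the same side of 0 in both.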

How the data were processed

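Poly(A)-enriched RNA-seq values were used as deposited by the authors, in TPM per the file headers, with 1 value for each gene identifier and library. Per the submitters' processing notes the build was hg38 and the tools were STAR 2.7.10, Picard, HTSeq and DESeq2, whose role and order are not stated. TPM sum to the same total in each library, so depth is unknown and no count model was used. Libraries were assigned to groups by their titles. Of 61806 identifiers 61757 had a symbol in the reference table, and 542 of the 16079 genes tested were listed at 0 in at least 1 of the 6 libraries.

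Log2(TPM + 1) was fitted with limma 3.58.1 in R 4.3.3 as 1 model of 6 groups (12 residual and 4.43 prior degrees of freedom, mean-variance trend), two-sided, with Benjamini-Hochberg adjustment over the 16079 genes. The script was tested on simulated data. The difference between lines was a contrast of the same model. Genes were named by a rule: the 15 largest rises and 15 largest falls among called genes without overlap and with a mean of at least 5 TPM in 1 group, 5 markers, genes of PI3K and LIN28B biology, and leading or role-bearing members of 53 lists. Some genes that the rule names are not reported here. The members, lists and motifs were chosen with earlier results of these data known. A list is described by counts and medians beside all genes. Promoters came from the RefSeq table of GRCh38.p14, 1 window per gene.

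Alternatives were other pseudocounts, filters and scalings, the mitochondrial genome left out, fewer groups, a replicate block, no trend, array weights and each library left out.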

Additional observations from a re-analysis of the deposited data

Results flagged for a closer look

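The alpelisib effect differed between LoVo-labelled and DLD-1 LIN28B cells for 170 genes by a test of the difference itself (limma, Benjamini-Hochberg adjusted p under 0.05). Among the genes described, the difference in log2 change (LoVo-labelled minus DLD-1) was 1.95 for DIO3, 1.68 for DIO3OS, 1.40 for PSCA and 1.24 for AVIL, all of which rose in both lines. It was -1.0 for ANKRD37 and -0.82 for NR1D1, which fell in both. It was -1.96 for REG4, which rose in both, -0.98 for GDF15 and -0.84 for MT2A, which fell in LoVo-labelled cells and were not called in DLD-1, and 2.04 for CHAC1, which fell in DLD-1 and was not called in LoVo-labelled cells. The library profiles of the LoVo-labelled LIN28B groups resembled DLD-1 more than LoVo EV cells, and the part of cell identity in these differences was not tested. DIO3, DIO3OS, PSCA, AVIL, ANKRD37 and NR1D1 were picked by their change in LoVo-labelled cells, which favours a larger change there.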

How the results depend on the processing

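Depth is unknown, so no counting error stands behind the low values. Of 199 called genes among the 209 described and tested, 187 kept their direction and call in every alternative run, and the 12 others lost the call in at least 1. Genes called with a change of 2-fold or more in TPM plus the pseudocount numbered 667 higher and 662 lower. This count moved with the pseudocount and filter, to 1016 higher at a pseudocount of 0.1 and 390 higher at 2. It was 368 higher with a minimum of 5 TPM and 424 lower with median-of-ratios scaling. The cause was not tested. Without single libraries the comparison called 5929 to 6893 genes, 2272 to 2573 higher and 3638 to 4389 lower. Of these 608 to 767 rose and 485 to 852 fell by 2-fold or more in TPM + 1.

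The difference between lines (170 genes, 126 with the LoVo-labelled change higher and 44 lower) was called for 295 genes (120 lower) with median-of-ratios scaling, for 275 (86 lower) without the LoVo EV libraries and for 463 (313 higher, 150 lower) with array weights, whose estimation stopped before convergence. With the mitochondrial genome left out 92 were lower. Without single libraries it was called for 104 to 184, with 69 to 127 higher and 27 to 57 lower. In a fit with replicate numbers as a block it was called for 41 (31 higher, 10 lower), and alpelisib versus untreated for 6639. With that block the differences for NR1D1 (adjusted p = 0.0506), PSCA (0.0917) and AVIL (0.106) and the changes of ERBB2 (0.0629) and HMGA2 (0.0655) were not called by limma. The numbers are not shown to pair the libraries, since same-numbered libraries correlated in their deviations at 0.0428, -0.1059 and -0.184. None of the libraries correlated best with its own number in the other group.

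ATF4, not called, changed sign with array weights (-0.011) and without untreated replicate 1 (-0.011) or treated replicate 3 (-0.026). The difference for LGALS1, not called, ranged from -0.173 to 0.109 over the fits without 1 library, and it changed sign without treated replicate 1, DLD-1 untreated replicate 1 (0.001) or DLD-1 treated replicate 1 (0.030).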
